A study of Mus musculus with 2 samples.

Results

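The 33 genes described here are the interferon response and antigen presentation genes of mouse: 18 genes that interferons induce or that relay their signal, 11 genes of the major histocompatibility complex (MHC) class I pathway and 4 genes of the class II pathway. They were chosen by symbol from the 53698 gene entries of the deposited matrices, and each matched exactly 1 entry in both. The cells came from kidneys of FVBN mice and were labelled as positive for PDGFRa and PDGFRb, the platelet-derived growth factor receptors of fibroblasts and pericytes. The library labelled sham stands for kidney with no obstruction, and the library labelled UUO for kidney at 10 days after unilateral ureteral obstruction, the tying of 1 ureter that is used to model kidney fibrosis. The labels give no other treatment or allele, and no age or number of animals. Single cells were profiled by 10x Chromium 3′ sequencing (version 2 chemistry), in which each captured transcript carries a unique molecular identifier (UMI) and is counted once.

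Each group is 1 library, so no comparison between the libraries has a replicate check and no p-value is given. After filtering, 10656 cells with the label sham and 1052 with the label UUO remained, with 85359332 and 6023072 UMIs in all deposited barcodes and medians of 7824 and 4154 UMIs per kept cell. The libraries shared 13 of the kept barcodes. Cells were put into classes by their UMIs of marker genes. Most were fibroblast-like, 9470 and 776 cells with medians of 8144 and 4661.5 UMIs. Endothelial-like cells, which are not known to carry both receptors, numbered 321 and 60, macrophage-like cells 172 and 2, loop or distal tubule-like cells 195 and 4, and proximal tubule-like cells 19 and 65. Several genes of fibrosis ran against the labels. In fibroblast-like cells, Timp1 was at 706 UMIs per 1000000 with the label sham and 65.7 with the label UUO, Acta2 at 1492 and 337.3, and Col1a1 at 2395 and 1504, while Postn was at 77.9 and 145.1. The libraries are therefore named by their labels throughout, and no difference between them is given as an effect of obstruction. Both libraries held cells with Xist UMIs and cells with UMIs of Y-linked genes, and so RNA of female and male animals. The mix was unequal. Of fibroblast-like cells with the label sham, 5321 had Xist but no Y-linked UMIs and 1547 had Y-linked but no Xist UMIs. With the label UUO these were 197 and 221. The part of this mix in differences between the libraries was not tested, though alternative settings took each kind of cell alone.

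Interferons are secreted proteins that alert cells to infection. Type I and type II interferons bind separate receptors, and the signal reaches the nucleus through STAT proteins and interferon regulatory factors (IRF), which bind short DNA elements in the promoters of the induced genes. MHC class I molecules, a heavy chain such as H2-K1 or H2-D1 bound to B2m, show peptides of a cell's own proteins on nearly all cells, while class II molecules show peptides of engulfed proteins mainly on macrophages, dendritic cells and B cells. FVB/N mice carry the H-2q haplotype, whereas the mm10 reference comes from C57BL/6, which is H-2b. Reads of H2 genes may therefore not be counted alike for every gene, and the part of this in the values was not tested.

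Promoter sequence was looked at first because it shows which members carry the DNA elements of the pathway. RefSeq promoters of GRCm38.p6 (250 bases before to 50 bases after each start) were at hand for 28 of the 33 members, all but Ifi27, Usp18, Tap2, H2-Ab1 and Cd74. The core of the interferon-stimulated response element, to which the factors of the type I signal bind, was searched as GAAA, any 2 bases and GAAA on both strands, with overlapping matches counted. It was found for 11 of 16 interferon response genes, 2 of 10 class I genes and 0 of 2 class II genes, against 3.99% of all 27025 genes with a promoter. The core of the gamma-activated sequence, an element of the interferon gamma response, was searched as TTCNNNGAA, which reads the same on both strands. It was found for 5 of 16 interferon response genes, 1 of 10 class I genes and 0 of 2 class II genes, against 9.55% of all genes. A match is a description of the letters and not a mapped site. The windows below are of members that hold a match, and not every such member is printed. Each is read 5′ to 3′ on the strand of the gene and ends before its RefSeq start, with matches in capitals. The first 7 carry the response element core.
Isg15 (chr4:156200855-156200916, minus strand, 3 overlapping matches): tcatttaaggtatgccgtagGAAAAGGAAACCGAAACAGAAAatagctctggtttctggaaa
Ifit1 (chr19:34640765-34640833, plus strand, 2 matches): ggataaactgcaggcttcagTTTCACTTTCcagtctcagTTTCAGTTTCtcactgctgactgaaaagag
Ifit3 (chr19:34583353-34583436, plus strand, 2 matches): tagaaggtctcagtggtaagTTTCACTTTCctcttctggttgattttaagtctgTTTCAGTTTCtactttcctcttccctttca
Rsad2 (chr12:26456543-26456592, minus strand, 1 match): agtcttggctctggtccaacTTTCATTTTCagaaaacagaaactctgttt
Gbp3 (chr3:142559979-142560034, plus strand, 2 overlapping matches): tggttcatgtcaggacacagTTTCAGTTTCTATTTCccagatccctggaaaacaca
H2-T23 (chr17:36032796-36032845, minus strand, 1 match): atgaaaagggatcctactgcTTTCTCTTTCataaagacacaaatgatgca
B2m (chr2:122147528-122147577, plus strand, 1 match): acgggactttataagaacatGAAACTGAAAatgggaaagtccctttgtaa
Irf1 (chr11:53769904-53769952, plus strand, 1 match to the gamma-activated sequence core): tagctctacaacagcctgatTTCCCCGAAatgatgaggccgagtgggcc
Of the windows printed, those of Ifit1, Ifit3, Isg15 and Gbp3 held more than 1 match each, and Irf1 held the gamma-activated core but no match to the response element core. No match to either core was found in the windows of H2-K1, H2-D1, H2-Q7, Tap1 or Psmb9. Tap1, a subunit of the peptide transporter, and Psmb9, a subunit of the immunoproteasome, lie head to head. Their RefSeq starts frame the following 225 bases (chr17:34187331-34187555, plus strand), which hold neither core. In the GENCODE annotation Psmb9 starts farther out, so that this stretch lies within that gene.
Tap1 and Psmb9: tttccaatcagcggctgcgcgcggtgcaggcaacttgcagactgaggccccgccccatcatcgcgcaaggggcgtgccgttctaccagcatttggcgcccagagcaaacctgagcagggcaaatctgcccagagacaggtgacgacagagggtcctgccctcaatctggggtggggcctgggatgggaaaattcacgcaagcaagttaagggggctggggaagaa

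Levels were taken as summed UMIs of a class divided by all UMIs of that class, scaled to 1000000 (CPM). Intervals are 95% intervals for counting error alone, and they do not cover differences between animals or between cells. A gene was counted as measured in a comparison when it reached 10 CPM on either side, and as higher or lower when the ratio was at least 2-fold after 5 CPM were added to both sides. A gene under 10 CPM on 1 side enters only through the other side, which fixes the direction of its ratio. The shares over all genes follow the same rule. Because UMIs mark 3′ ends, levels are compared between classes for 1 gene and not between genes.

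**Figure D1:**
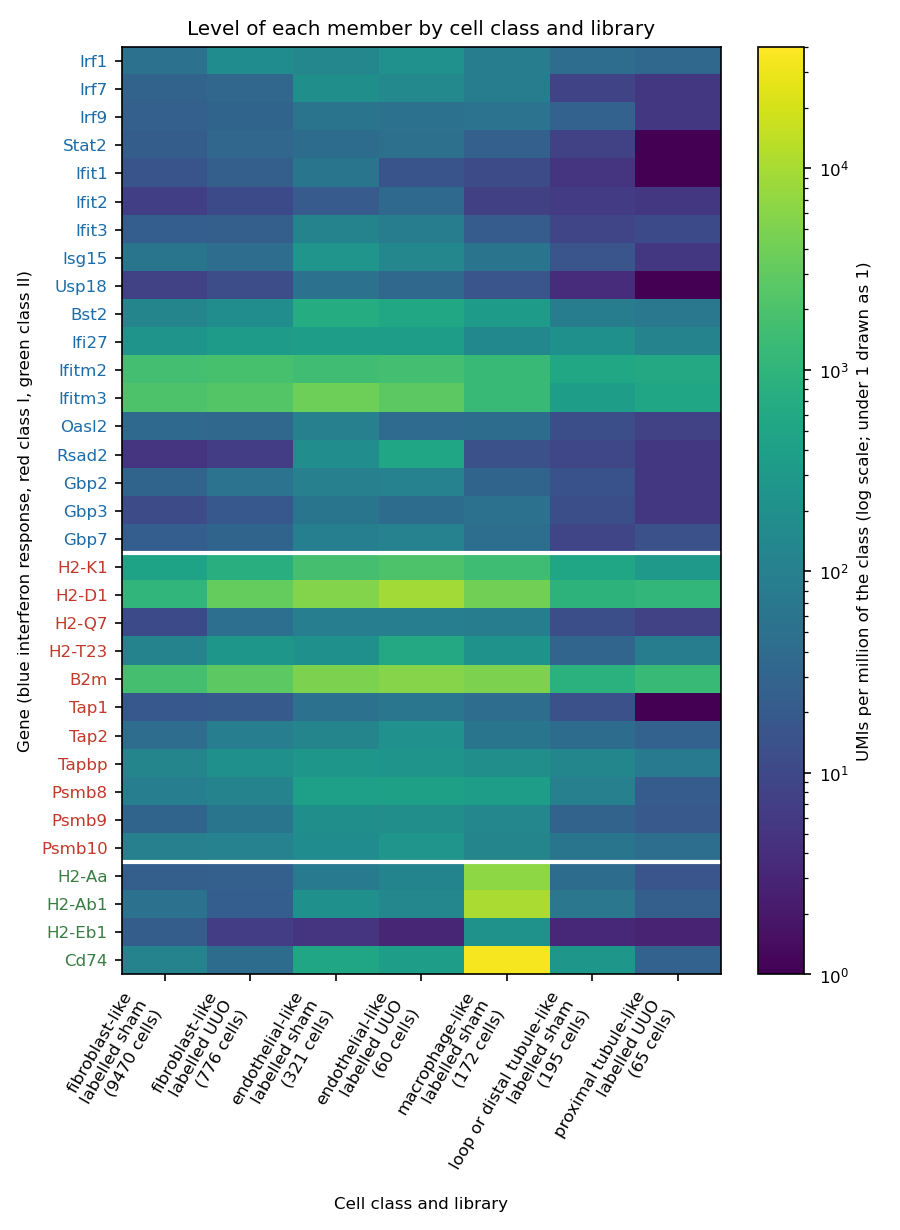
Level of each of the 33 members (rows) in the 7 pairs of cell class and library with at least 50 cells (columns), as UMIs per 1000000 on a logarithmic colour scale. Cd74, H2-Ab1 and H2-Aa stand out in macrophage-like cells, and Rsad2, Irf7, Isg15 and Bst2 are brightest in endothelial-like cells.

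Endothelial-like cells held most of these genes at a higher level than fibroblast-like cells did. With the label sham, 26 of the 33 measured members were higher in endothelial-like than in fibroblast-like cells and 1, H2-Eb1, was lower. Over all genes measured in that comparison, 11.7% were higher and 10.7% lower. With the label UUO, 21 of 32 measured members were higher in endothelial-like cells and 0 lower, against 12.5% higher and 12.6% lower over all genes. Rsad2, Ifit2 and Usp18 were under 10 CPM in fibroblast-like cells with the label sham, and so was Rsad2 with the label UUO. There they were measured only through the endothelial-like cells. The median log2 ratio of the members was 1.63 with the label sham and 1.18 with the label UUO, and that of all genes was 0.12 in both. These endothelial-like cells come from a preparation labelled as PDGFR-positive and may not stand for kidney endothelium as a whole.

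Among the interferon response genes, Rsad2 (viperin, an antiviral enzyme) stood farthest from the fibroblast-like cells. With the label sham it was at 181.6 CPM in endothelial-like and 5.14 CPM in fibroblast-like cells, a ratio of 35.3 (30.0 to 41.5). With the label UUO it was at 508.5 and 6.75 CPM, a ratio of 75.3 (50.8 to 115.2). In each library the endothelial level lay far above every other class with at least 50 cells. Thinned to 1000 UMIs per cell, 16.1% of endothelial-like cells with the label sham and 37.7% with the label UUO held a Rsad2 UMI, against 0.378% and 0.283% of fibroblast-like cells. Isg15, a ubiquitin-like protein that is attached to other proteins, was at 256.1 and 61.8 CPM in endothelial-like and fibroblast-like cells with the label sham, and at 135.6 and 45.0 CPM with the label UUO. Irf7, the factor that amplifies type I interferon production, was at 196.8 and 28.7 CPM with the label sham, a ratio of 6.86 (6.02 to 7.78), and at 144.8 and 33.1 CPM with the label UUO. Bst2 (tetherin, which holds budding viruses on the cell surface) was at 701.2 and 126.8 CPM with the label sham and at 582.4 and 182.0 CPM with the label UUO.

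Not all interferon response genes followed. Ifitm2, a membrane protein that blocks viral entry, was at 1575 CPM in endothelial-like and 1705 CPM in fibroblast-like cells with the label sham, and at 1655 and 1817 CPM with the label UUO. Ifitm2 and Ifi27 were within 2-fold in both libraries, as was Stat2, which relays the type I signal. Ifit1, which binds foreign RNA, was at 60.8 and 15.7 CPM with the label sham but at 15.4 and 25.0 CPM with the label UUO, where only 5 counts stood behind the endothelial value. The effectors Ifit2, Ifit3 and Usp18 (the last removes Isg15 from proteins) and the guanylate-binding proteins Gbp3 and Gbp7 were higher in endothelial-like cells in both libraries, with ratios from 2.91 to 6.45 with the label sham and from 2.31 to 3.64 with the label UUO. Irf1, Irf9 (the DNA-binding partner of the STATs), Oasl2 and Gbp2 were higher with the label sham only, with ratios of 2.28 to 3.43 there and of 1.16 to 1.89 with the label UUO. In the library labelled sham 14 of 18 interferon response genes were higher in endothelial-like cells and in the library labelled UUO 9 of 18. Whether the libraries differ in this was not tested.

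**Figure D2:**
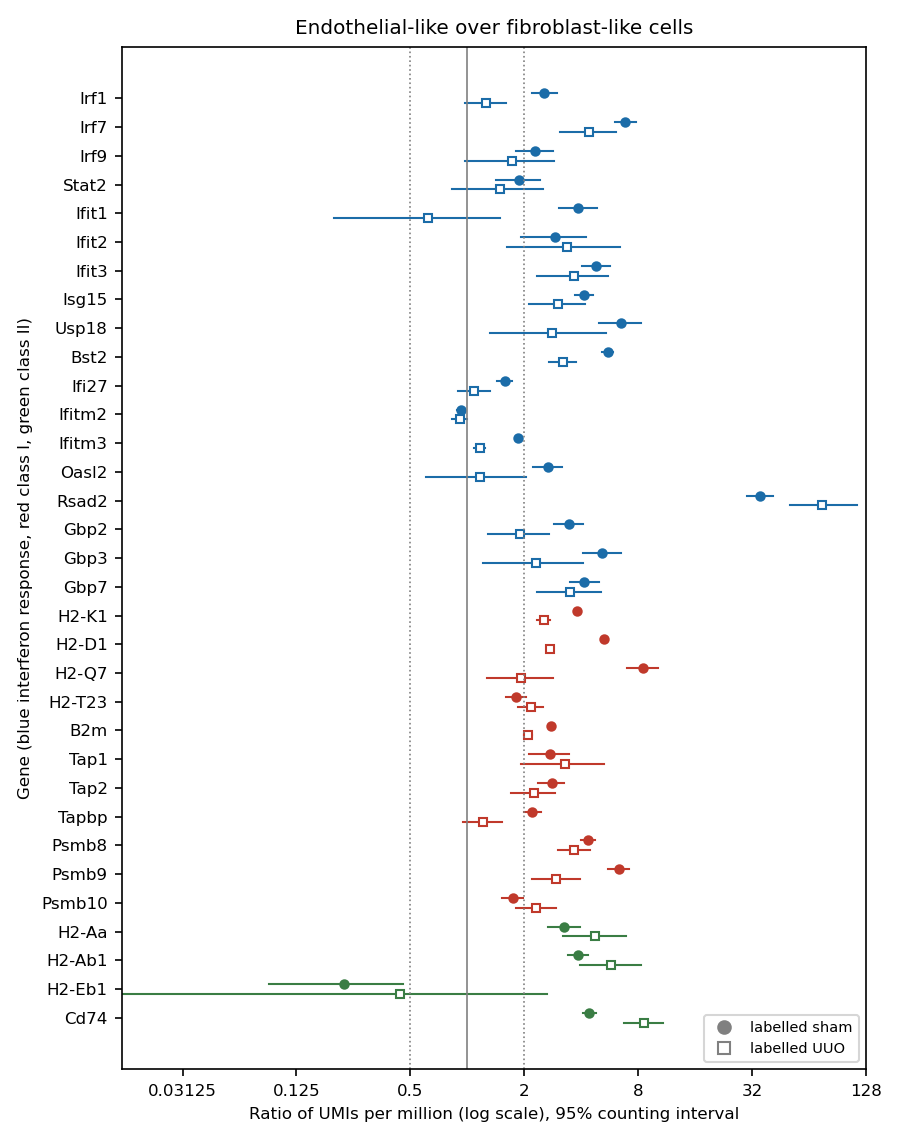
Ratio of UMIs per 1000000 in endothelial-like over fibroblast-like cells for each member (logarithmic axis), with filled circles for the library labelled sham and open squares for the library labelled UUO, 95% counting intervals as bars and dotted lines at 2-fold. Rsad2 lies farthest right in both libraries, at 35.3 and 75.3, and H2-Eb1 lies on the left.

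Class I genes were also higher in endothelial-like cells, 9 of 11 in each library. B2m, the shared light chain, was at 4883 CPM in endothelial-like and 1772 CPM in fibroblast-like cells with the label sham, and at 5920 and 2823 CPM with the label UUO. The heavy chain H2-D1 was at 5590 and 1060 CPM with the label sham, a ratio of 5.27 (5.15 to 5.40), and at 9133 and 3330 CPM with the label UUO, a ratio of 2.74 (2.64 to 2.85). H2-K1 was at 1762 and 463.2 CPM with the label sham and at 2055 and 812.2 CPM with the label UUO, and Tapbp (tapasin, which loads peptides) was 2-fold higher with the label sham only, at ratios of 2.21 and 1.21. Tap1, which carries peptides into the endoplasmic reticulum with Tap2, was at 51.4 and 18.9 CPM with the label sham and at 64.7 and 19.8 CPM with the label UUO. Macrophage-like cells, compared with fibroblast-like cells in the library labelled sham only, were higher for 7 of 11 class I genes, 4 of 4 class II genes and 3 of 17 measured interferon response genes. For all genes the shares were 10.4% higher and 22% lower. The 3 interferon response genes were Irf7, Bst2 and Gbp3, a guanylate-binding protein induced by interferon gamma.

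The immunoproteasome replaces 3 catalytic subunits of the standard proteasome: Psmb8 takes the place of Psmb5, Psmb9 that of Psmb6 and Psmb10 that of Psmb7. The share of the immune subunit in the counts of each pair was compared between classes, since it does not depend on the total of a class. Psmb8 made up 32.2% of its pair in fibroblast-like cells with the label sham (31.6 to 32.8), 71.8% in endothelial-like cells (68.5 to 75.0), 75.9% in macrophage-like cells (71.6 to 79.8) and 26.2% in loop or distal tubule-like cells (23.4 to 29.3). With the label UUO it made up 45.2% in fibroblast-like cells (42.2 to 48.2), 77.9% in endothelial-like cells (71.0 to 83.9) and 6.61% in proximal tubule-like cells (2.90 to 12.6). For both subunits the endothelial-like and macrophage-like intervals overlapped. Psmb9 was at 10.5% of its pair in fibroblast-like, 39.2% in endothelial-like and 39.8% in macrophage-like cells with the label sham. With the label UUO its share was 22.4% in fibroblast-like and 38.5% in endothelial-like cells. The Psmb10 shares lay closer together, at 41.9%, 49.8% and 49.0% in these classes with the label sham, and the last 2 intervals overlapped. In fibroblast-like cells the share was larger with the label UUO for each of the 3 pairs, with intervals that did not overlap, and in all 3 pairs the standard subunit was at fewer CPM there. Psmb5 was at 194.9 CPM with the label sham and 136.2 with the label UUO, a ratio of 0.698 (0.643 to 0.757).

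Class II transcripts were highest in macrophage-like cells and in the 38 other myeloid-like cells. In the library labelled sham, Cd74, the invariant chain that escorts class II molecules, was at 35092 CPM in macrophage-like cells, 40518 in other myeloid-like cells, 513.0 in endothelial-like cells, 268.0 in loop or distal tubule-like cells and 116.4 in fibroblast-like cells. H2-Aa and H2-Ab1, the alpha and beta chains of the A molecule, were at 6659 and 10632 CPM in macrophage-like cells, at 9312 and 15379 CPM in other myeloid-like cells and at 24.3 and 53.2 CPM in fibroblast-like cells. In the library labelled UUO, where only 2 cells were macrophage-like, Cd74 was at 42.3 CPM in fibroblast-like and 363.6 CPM in endothelial-like cells. Ciita, the factor that switches on class II genes, had 18 counts among 77401336 UMIs in fibroblast-like cells with the label sham. With the label UUO it had 0 among 4444492 UMIs, too few to compare the libraries. Macrophage-like cells with the label sham held 43 counts among 927141 UMIs, and endothelial-like cells 10 among 1382009.

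Class II UMIs in fibroblast-like cells were set beside the macrophage genes in the same cells, since RNA set free from macrophages can enter any droplet. For every 100 Cd74 counts with the label sham, macrophage-like cells held 19.0 H2-Aa counts (18.5 to 19.5), 30.3 H2-Ab1 counts (29.6 to 31.0) and 20.05 counts of C1qa (19.5 to 20.6), a complement gene that marks macrophages. Fibroblast-like cells held 20.8 (19.8 to 21.9), 45.7 (44.1 to 47.4) and 16.6 (15.7 to 17.6) counts. The other macrophage and myeloid genes did not all differ the same way. C1qb stood at 14.4 per 100 Cd74 in fibroblast-like and 14.9 in macrophage-like cells and C1qc at 12.9 and 13.7, each with overlapping intervals. Lyz2, at 62.8 and 38.2, and Tyrobp, at 9.29 and 6.86, were more frequent relative to Cd74 in fibroblast-like cells. At 1000 UMIs per cell a Cd74 UMI was found in 9.89% of fibroblast-like cells and in 14.6% of loop or distal tubule-like cells with the label sham, with median depths of 8144 and 10081 UMIs before thinning. Before thinning the fibroblast share was 42.7%. The share in fibroblast-like cells lay below that in loop or distal tubule-like cells. Whether either class transcribes the gene was not tested, nor was the source of these UMIs. The endothelial share at 1000 UMIs, 27.7%, was above both. Endothelial-like cells held 9.87 C1qa counts per 100 Cd74 counts with the label sham (7.61 to 12.6) and 0 of C1qa beside 118 of Cd74 with the label UUO, where the upper bound was 3.18.

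H2-Eb1, the beta chain of the E molecule, departed from the other class II genes. For every 100 Cd74 counts with the label sham there were 0.627 H2-Eb1 counts in macrophage-like cells (0.544 to 0.720), 0.987 in endothelial-like cells (0.396 to 2.04) and 1.29 in loop or distal tubule-like cells (0.554 to 2.55), but 19.6 in fibroblast-like cells (18.6 to 20.6). Fibroblast-like cells with the label UUO held 16.5 (10.9 to 24.2). No fibroblast-like cell with the label sham held more than 5 H2-Eb1 UMIs, while the highest cell held 63 of H2-Aa and 121 of H2-Ab1. The gene (chr17:34305867-34316674, plus strand) overlaps Gm20513 on the other strand, which had 0 counts in fibroblast-like, endothelial-like and macrophage-like cells of both libraries. The H2-Eb1 counts in fibroblast-like cells thus did not keep the ratio to Cd74 seen in macrophage-like cells, and their source was not tested.

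**Figure D3:**
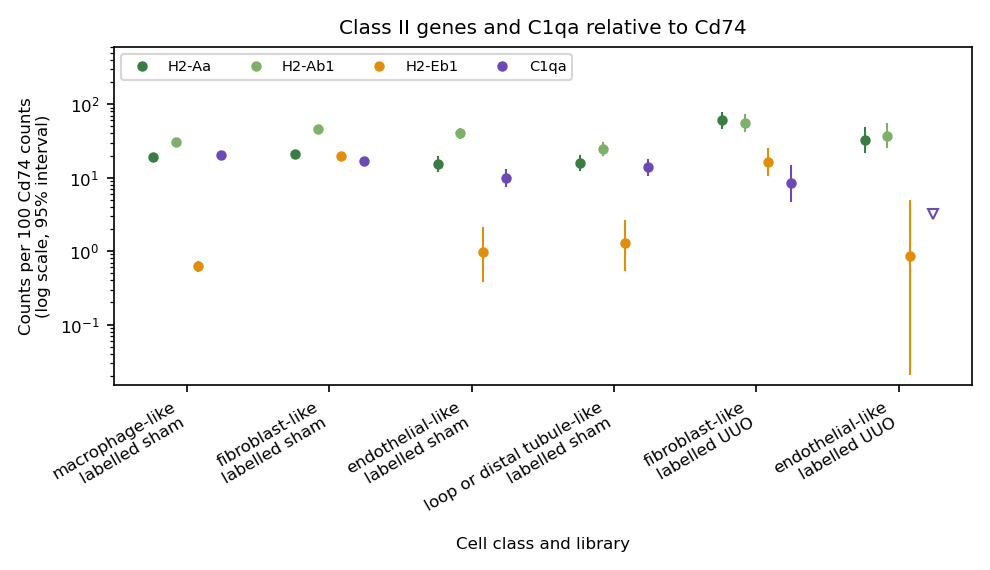
Counts of H2-Aa, H2-Ab1, H2-Eb1 and C1qa per 100 Cd74 counts (logarithmic axis, bars are 95% counting intervals, the open triangle marks the upper bound where C1qa had 0 counts) in 6 pairs of class and library. H2-Eb1 is near 1 in macrophage-like, endothelial-like and loop or distal tubule-like cells and at 19.6 and 16.5 in fibroblast-like cells.

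Tubule cells held many members at a lower level than fibroblast-like cells. In loop or distal tubule-like cells with the label sham, 9 of 15 measured interferon response genes were lower than in fibroblast-like cells and 0 higher, against 13% lower and 12.1% higher over all genes, while 9 of 11 class I genes were within 2-fold. Irf7 was at 8.63 CPM there and Ifitm3, a close relative of Ifitm2, at 380.2 CPM beside 2071 CPM in fibroblast-like cells. In proximal tubule-like cells with the label UUO, 25 of 31 measured members were lower than in fibroblast-like cells, among them 11 of 11 class I genes, against 27.8% of all genes. B2m was at 1330 CPM there, beside 2823 CPM in fibroblast-like cells.

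Smaller classes had 38 cells or fewer and are given as values. The 38 other myeloid-like cells with the label sham held Isg15 at 477.6 CPM and Irf7 at 395.5 CPM, both above the endothelial levels. Among kept cells of any class in that library, 34 lay near the threshold of this class, with a marker share of 0.3% to 0.5%. The 23 T- or NK-like cells held H2-K1 at 2788 CPM, against 1762 CPM in endothelial-like and 463.2 CPM in fibroblast-like cells.

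Between the libraries, 8 members differed 2-fold in fibroblast-like cells. Of 17 measured interferon response genes, 1 was higher with the label UUO and 0 lower, of 11 class I genes 4 were higher and 0 lower, and of 4 class II genes 0 were higher and 3 lower. Over all 9654 genes measured in that comparison, 12.3% were higher and 4.69% lower. The interferon response calls were thus no larger a share than those of all genes. The median log2 ratio was 0.39 for the interferon response, 0.80 for class I and -1.12 for class II, beside -0.00397 for all genes. Fewer transcripts per cell and fewer transcribing cells cannot be told apart in these sums.

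The interferon response gene that was higher was Irf1 (chr11:53770014-53778374, plus strand), a transcription factor that interferon gamma induces. It was at 52.9 CPM with the label sham and 172.1 CPM with the label UUO, a ratio of 3.25 (3.01 to 3.51). Irf1 reached 2-fold under each of the 13 alternative settings. Immediate early genes, which tissue dissociation is known to induce, were also at unequal levels. The sum of 8 of them (Fos, Fosb, Jun, Junb, Egr1, Atf3, Ier2 and Zfp36) was 10581 CPM with the label sham and 13364 CPM with the label UUO, and Atf3 alone was at 108.5 and 466.0 CPM. In endothelial-like cells the sum was 13536 CPM with the label sham and 10030 CPM with the label UUO, while Irf1 was at 135.3 and 215.7 CPM. The part of the immediate early genes in the Irf1 difference was not tested. The antiviral genes Isg15, Ifit3 and Ifit1 stayed within 2-fold in fibroblast-like cells: Isg15 was at 61.8 and 45.0 CPM, Ifit3 at 23.7 and 24.5 CPM and Ifit1 at 15.7 and 25.0 CPM. Gbp2, a guanylate-binding protein, came nearest to the threshold, at 29.9 and 56.9 CPM, a ratio of 1.90 (1.66 to 2.17). The other 12 measured genes of the group had ratios from 0.929 (Oasl2) to 1.58 (Gbp3). Rsad2 did not reach 10 CPM in fibroblast-like cells of either library and was not counted. The calls did not divide by promoter core. Ifit2, Bst2, Ifitm3, Gbp7 and Psmb8, which also held the gamma-activated core, were within 2-fold. H2-T23 held the response element core and was higher, and H2-D1 and H2-Q7 held neither core and were higher.

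The class I genes that were higher were H2-D1, H2-Q7, H2-T23 and Tap2. H2-D1 (chr17:35262730-35267499, plus strand) was at 1060 CPM with the label sham and 3330 CPM with the label UUO, a ratio of 3.14 (3.09 to 3.20), while H2-K1, the other classical heavy chain measured, was at 463.2 and 812.2 CPM, a ratio of 1.75 (1.69 to 1.82). H2-T23, the nonclassical heavy chain known as Qa-1, was at 115.0 and 278.0 CPM, a ratio of 2.42 (2.28 to 2.57). Tap2 was at 44.2 and 93.6 CPM, a ratio of 2.12 (1.91 to 2.35), but fell short of 2-fold in 7 of the 13 alternative settings. Tap1 was at 18.9 and 19.8 CPM, a ratio of 1.05 (0.836 to 1.30), and Psmb9, which starts from the other end of the stretch printed above, at 31.0 and 62.5 CPM, a ratio of 2.01 (1.77 to 2.28) that stayed within 2-fold once 5 CPM were added. The ratios of Tap1 and Psmb9 thus had intervals that did not overlap. In the GENCODE annotation the 2 genes overlap at their starts on opposite strands, and no source at hand says whether counting used strand. The other class I genes were within 2-fold, with ratios of 1.64 for Tapbp, 1.59 for B2m, 1.21 for Psmb8 and 1.09 for Psmb10.

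H2-Q7 (chr17:35439155-35443773, plus strand) is a nonclassical class I gene with a near-identical copy, H2-Q6, and UMIs that match both were divided by the counting. H2-Q7 was at 10.96 CPM with the label sham and 48.2 CPM with the label UUO, a ratio of 4.39 (3.77 to 5.11). H2-Q6, which is not among the 33 genes, was at 4.67 and 72.2 CPM, a ratio of 15.5 (13.3 to 18.0). Summed, the 2 copies were at 15.6 and 120.4 CPM, a ratio of 7.71 (6.95 to 8.54). The division between the copies differed between the libraries. H2-Q7 took 70.1% of the summed counts in fibroblast-like, 67.4% in endothelial-like and 73.8% in macrophage-like cells with the label sham, but 40% in fibroblast-like and 27.3% in endothelial-like cells with the label UUO. The intervals of the first 3 shares overlapped each other and neither of the last 2.

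The class II genes that were lower were Cd74, H2-Ab1 and H2-Eb1. Cd74 was at 116.4 CPM with the label sham and 42.3 CPM with the label UUO, a ratio of 0.363 (0.313 to 0.420). H2-Ab1 was at 53.2 and 23.6 CPM, and H2-Eb1 at 22.8 and 6.97 CPM, while H2-Aa was at 24.3 and 25.4 CPM, within 2-fold. Macrophage markers moved the same way in these cells. C1qa was at 19.4 CPM with the label sham and 3.60 CPM with the label UUO, and the 9 macrophage markers together at 64.5 and 15.97 CPM, with 0 and 1 of them at 0 counts. Their part in the class II difference was not tested. Among the 857 and 339 fibroblast-like cells with no UMI of any macrophage, other myeloid, T, NK or B cell marker, Cd74 was at 132.6 CPM with the label sham and 19.8 CPM with the label UUO, and H2-Aa at 24.99 and 8.24 CPM, past 2-fold there. These were 857 of 9470 and 339 of 776 cells, from classes with medians of 8144 and 4661.5 UMIs. Cells with fewer UMIs more easily lack a marker UMI, so the sets were not chosen alike in the libraries. Of the markers that removed cells, Plac8 had the highest level, at 675.4 CPM with the label sham and 221.2 CPM with the label UUO.

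**Figure D4:**
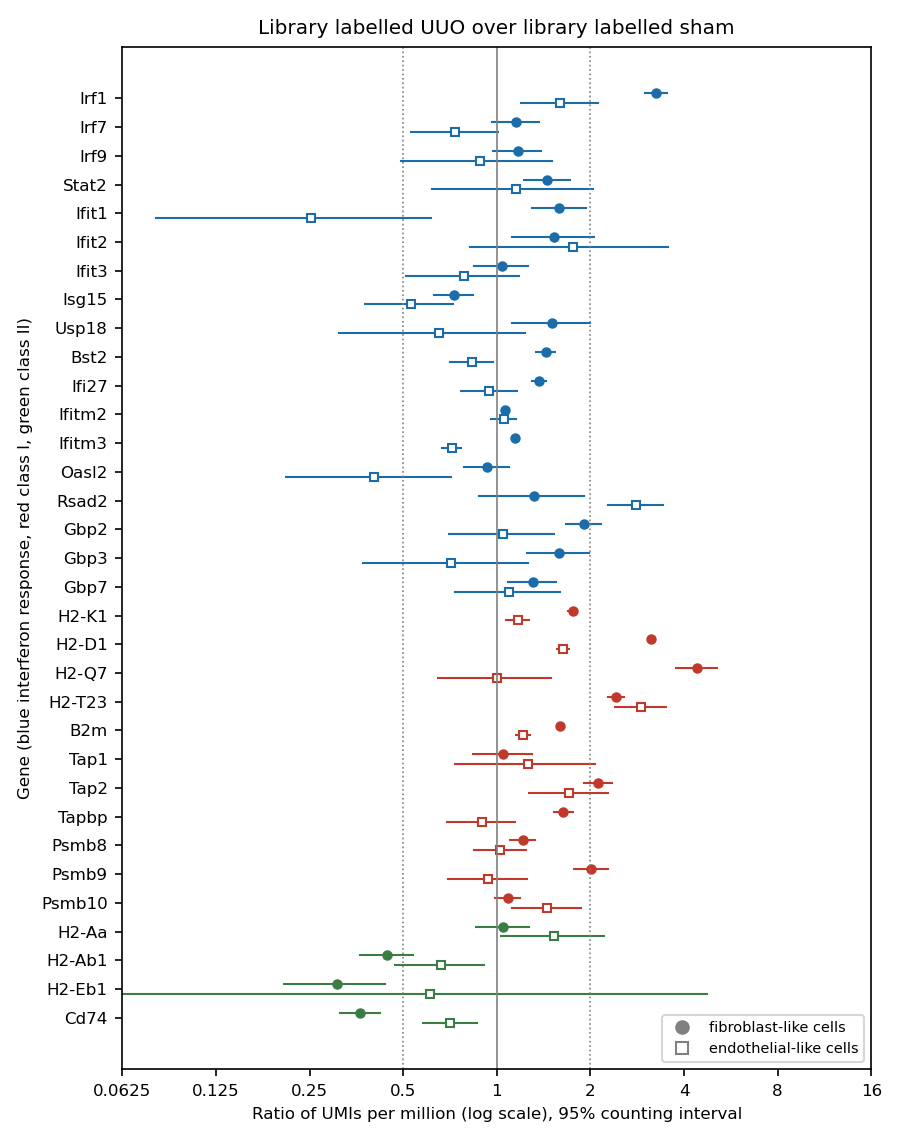
Ratio of UMIs per 1000000 with the label UUO over the label sham for each member (logarithmic axis), with filled circles for fibroblast-like and open squares for endothelial-like cells, 95% counting intervals as bars and dotted lines at 2-fold. In fibroblast-like cells H2-Q7, Irf1 and H2-D1 lie right of 2-fold and Cd74, H2-Ab1 and H2-Eb1 left of it.

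In endothelial-like cells, 2 of 32 measured members were higher with the label UUO and 2 lower. Both were smaller shares than the 13.3% and 8.11% of all genes. Rsad2 was at 181.6 CPM with the label sham and 508.5 CPM with the label UUO, a ratio of 2.80 (2.29 to 3.42), and H2-T23 at 208.1 and 605.1 CPM, a ratio of 2.90 (2.41 to 3.49). Ifit1 was at 60.8 and 15.4 CPM, and Oasl2, of the oligoadenylate synthetase family, at 99.1 and 40.1 CPM from 137 and 13 counts. H2-T23 was thus higher with the label UUO in both classes, while Rsad2 was higher in endothelial-like cells and under 10 CPM in fibroblast-like cells. Of the genes called in fibroblast-like cells, Cd74 was at 513.0 and 363.6 CPM and Irf1 at 135.3 and 215.7 CPM, both within 2-fold.

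With the label sham, UMIs of Rsad2, Ifit1 and Ifit3 were held by few fibroblast-like cells, and those of other interferon response genes less so. The 95 cells richest in each gene, 1% of the class, held 81.2% of the Rsad2 UMIs, 53.5% of the Ifit1 UMIs and 50.6% of the Ifit3 UMIs. The share was 43.4% for Usp18, 31.9% for Isg15, 26.7% for Ifit2, 24.5% for Irf7 and 12.5% for Oasl2. The 95 deepest cells held 3.14% of all UMIs. Sparse genes gather in few cells in any case, but Gbp3, with 912 counts beside 1216 for Ifit1, had 24.8% of its UMIs in its 95 richest cells. H2-Q7, with 848 counts, had 27.7%. Ifit2, with 558 counts, was no more gathered than H2-Q7. Ifitm3 and B2m, with UMIs in 96.7% and 96.9% of the cells, had 4.64% and 6.58%. Rsad2 in endothelial-like cells with the label sham was spread more evenly: its richest 1%, 4 of 321 cells, held 9.16%. The 8 richest fibroblast-like cells with the label UUO held 55.9% of the Ifit1 UMIs and 36.7% of the Ifit3 UMIs, but 30% of the Rsad2 UMIs, of which there were 30 in all and at most 2 in a cell.

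A set of 8 genes, Ifit1, Ifit2, Ifit3, Isg15, Irf7, Rsad2, Usp18 and Oasl2, was then used to find cells with UMIs of at least 4 of them. The set and the threshold were chosen after the values had been seen. Such cells were 345 of 9470 fibroblast-like cells with the label sham, 3.64% (3.27 to 4.04), and 26 of 776 with the label UUO, 3.35% (2.20 to 4.87). Among endothelial-like cells they were 73 of 321, 22.7% (18.3 to 27.7), and 13 of 60, 21.7% (12.1 to 34.2). They were deeper cells, with a median of 11248 UMIs beside 8010 in the other fibroblast-like cells with the label sham. At 1000 UMIs per cell the shares were 0.238% and 0.425% of fibroblast-like cells, from 22 and 3 cells, and 2.58% of endothelial-like cells with the label sham, from 8 cells. None of 53 endothelial-like cells with the label UUO reached 4 genes at that depth, with a 95% Clopper-Pearson upper bound of 6.72%. The share did not differ between the libraries beyond its interval, and the endothelial share exceeded the fibroblast share before thinning in both. With the label sham the 345 cells held 40.9% of the UMIs of the 8 genes.

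**Figure D5:**
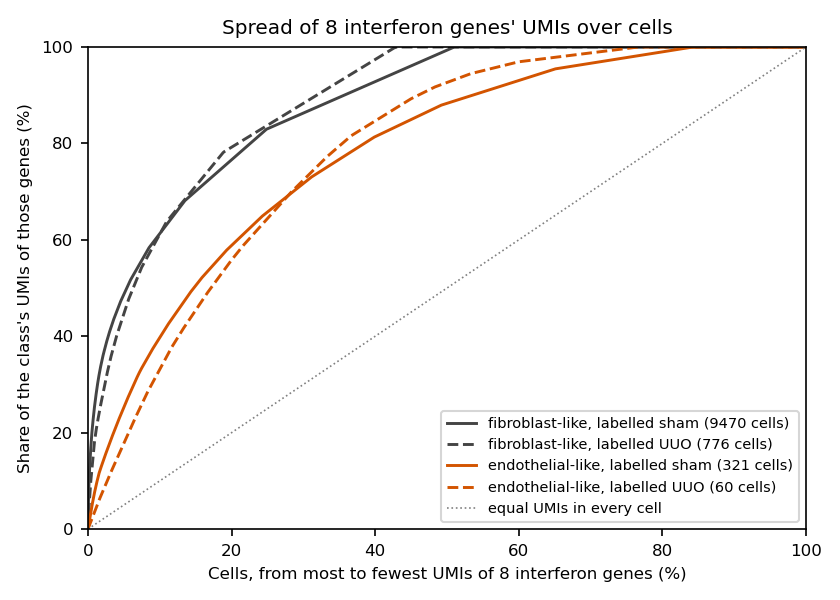
Cumulative share of the UMIs of the 8 interferon genes (vertical axis, %) against cells ordered from most to fewest of them (horizontal axis, % of the class), for fibroblast-like (grey) and endothelial-like cells (orange) with the label sham (solid) and UUO (dashed), and a dotted line for equal UMIs in every cell. The fibroblast-like curves lie above the endothelial-like curves in both libraries: fewer of the cells hold a given share of the UMIs.

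Genes outside the set were higher in these fibroblast-like cells too. With the label sham, 6 of the other 25 members were higher and 0 lower, namely Bst2, Stat2, Gbp2, Gbp3, Gbp7 and Tap1, against 0.834% higher and 0.197% lower over all other genes. Of 37 measured genes on another list of interferon-induced genes, 30 were higher and 0 lower. Only 25 genes of the list reached 10 CPM over all fibroblast-like cells of either library. Others measured here entered only through the 345 chosen cells, which fixed their direction. That list includes Ifit1bl1, Ifit3b and Oasl1, of the same families as genes that chose the cells. UMIs that match several genes are divided between them, so such genes are not independent of the choice. Cxcl10, a chemokine that draws T cells, was at 255.2 CPM in the 345 cells and 14.1 CPM in the rest, a ratio of 18.1 (16.6 to 19.8). Bst2 was at 387.5 and 112.3 CPM. Class I genes were within 2-fold for 10 of 11, B2m at 2678 and 1722 CPM, and Irf1 was at 62.1 and 52.4 CPM. Class II genes were within 2-fold for 4 of 4, Cd74 at 110.5 and 116.7 CPM. With the label UUO, where 26 cells qualified, 5 of 24 measured members were higher and 0 lower, against 4.71% higher and 5.14% lower over all other genes, and Cxcl10 was at 425.5 and 19.1 CPM. These were Irf9, Gbp3, Gbp7, Tap1 and Cd74, the last from 21 counts in the 26 cells. Among endothelial-like cells with the label sham, 5 of 24 measured members were higher and 0 lower, namely Irf1, Gbp2, Gbp3, Gbp7 and Tap1, against 3.9% higher and 3.54% lower over all other genes. Gbp3, Gbp7 and Tap1 were thus higher in all 3 of these comparisons. In endothelial-like cells Irf1 was at 241.7 CPM beside 92.4 CPM in the rest, a ratio of 2.62 (1.94 to 3.52).

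Within fibroblast-like cells, the tenth of the cells with the largest share of UMIs from a subset's marker genes was compared with the rest. With the label sham, no member differed 2-fold in any of the 8 subsets tried. In 83 cells with UMIs of proliferation genes only Ifit1 did, on the lower side. The 947 cells highest in Clca3a1 and Agtr1a were at 2932 CPM of B2m beside 1694 CPM in the rest, a ratio of 1.73 (1.70 to 1.76), and those highest in Nppc, Gpm6a and Alx1 at 1206 beside 1830 CPM, a ratio of 0.659 (0.645 to 0.674). The first were shallow cells, with a median of 4909 UMIs against 8620. With the label UUO the corresponding 78 cells were at 3592 beside 2763 CPM and at 3296 beside 2764 CPM, so B2m was above the rest in both subsets. Irf1 was at 76.8 CPM in the 78 cells highest in Clca3a1 and Agtr1a and 179.7 CPM in the rest, a ratio of 0.428 (0.275 to 0.636).

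The rest of the pathway was described from 8 lists of other genes. No interferon gene on the list of ligands reached 10 CPM in fibroblast-like, endothelial-like or macrophage-like cells. In the 23 T- or NK-like cells with the label sham, 1 of the 6 ligands did, among only 98291 UMIs. The 4 chains of the type I and type II receptors and Il10rb, a chain of the type III receptor, were measured and within 2-fold between the libraries in fibroblast-like cells. Ifngr1, the ligand-binding chain of the interferon gamma receptor, was at 91.3 CPM with the label sham and 176.8 CPM with the label UUO, a ratio of 1.94 (1.80 to 2.09), and Ifnar2 at 158.9 and 186.1 CPM. Of 11 measured signalling genes 1 was higher, Socs1, the inhibitor of this pathway that interferon gamma induces, at 40.2 and 105.3 CPM, and 1 lower, the kinase gene Jak2, at 27.1 and 9.0 CPM. Of 25 other interferon-induced genes 2 were higher with the label UUO and 0 lower, no larger a share than the 12.3% and 4.69% of all genes. These were Ifi204, at 32.98 and 93.4 CPM, and Dtx3l, at 17.8 and 71.5 CPM. In endothelial-like over fibroblast-like cells with the label sham, 28 of 37 genes of that list were higher and 1 lower. For all genes the shares were 11.7% and 10.7%. Some of the 37, such as Ifi44, were under 10 CPM in fibroblast-like cells and were measured only through the endothelial-like cells. Ifi44 was at 138.9 beside 2.38 CPM and Ifitm1, the one that was lower, at 127.4 beside 780.5 CPM.

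Genes with the most similar pattern were sought by Pearson correlation of log2 levels over the 7 pairs of class and library with at least 50 cells, among 9818 genes. The value describes 7 points that share libraries. For Cd74 the closest was H2-Ab1 (r = 0.989), for B2m the third was the class I gene H2-M3 (r = 0.970), and for Isg15 the fourth was Xaf1 (r = 0.983), an interferon-induced gene. The closest genes to Isg15 and B2m were Itga5 (r = 0.999) and Ncoa3 (r = 0.978).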

How the data were processed

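The deposited matrices hold 1 expected count for each pairing of cell and gene, estimated by the authors with alevin of Salmon 0.13.1 on mm10, per the submitters' processing notes; the deposited lists name 53698 gene entries. Fractions arise where UMIs match several genes, which touches Ifit, Ifitm, Gbp and H2 genes most. Kept cells had at least 500 UMIs, 300 genes and at most 20% mitochondrial UMIs. A class needed UMIs of at least 4 of its markers and at least 0.4% of the cell's UMIs from them, thresholds set on the marker distributions. Cells meeting 2 unrelated classes (180 labelled sham, 36 labelled UUO) were left out as likely doublets; doublets within a class were not removed. Among kept cells of any class with UMIs of at least 4 fibroblast markers, some lay near the threshold. A fibroblast marker share of 0.3% to 0.5% was found in 215 labelled sham and 91 labelled UUO. Counts were summed per class and library with numpy 2.4.6 and scipy 1.17.1. Ratios carry exact conditional binomial intervals, levels exact Poisson intervals and shares Clopper-Pearson intervals; the interval code was tested on simulated data. Clusters for an alternative class rule came from leidenalg 0.10.2. Positions are from GENCODE on GRCm38, matched by gene ID; the version number matched for 26 members and differed for 7. Members and lists were chosen with earlier results of these data known. Named members are those past the 2-fold threshold and the lead members of each function; named pathway genes are the 2 at each end of a list with at least 20 CPM, and other genes were chosen after their values were seen. The sources used here do not state whether counting used strand.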

Additional observations from a re-analysis of the deposited data

Results flagged for a closer look

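The following ratios had counting intervals on opposite sides of 1 in 2 groups. None of these differences was tested, since each group is 1 library, and the counting intervals do not cover variation between animals.

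The ratio of the library labelled UUO over that labelled sham was above 1 in fibroblast-like and below 1 in endothelial-like cells for 3 members. It was 1.59 (1.30 to 1.93) and 0.254 (0.0802 to 0.615) for Ifit1, where 5 counts stood behind the endothelial value with the label UUO. For Bst2 it was 1.43 (1.33 to 1.54) and 0.831 (0.707 to 0.972), and for Ifitm3 1.14 (1.12 to 1.17) and 0.716 (0.666 to 0.769).

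Fibroblast-like cells highest in Nppc, Gpm6a and Alx1 had lower ratios to the other fibroblast-like cells with the label sham than with the label UUO for 9 members. The ratio was 0.659 and 1.19 for B2m, 0.736 and 1.29 for H2-K1, 0.831 and 1.20 for H2-D1, 0.727 and 1.30 for H2-T23, and 0.951 and 1.23 for Ifitm3. For the sparser genes it was 0.748 and 1.75 for Ifit1, 0.598 and 3.85 for Ifit2, 0.739 and 2.88 for Ifit3, and 0.887 and 1.93 for Isg15. In cells highest in Clca3a1 and Agtr1a, Gbp2 had a ratio of 1.45 (1.26 to 1.68) with the label sham and 0.413 (0.176 to 0.827) with the label UUO. The subsets held 947 cells with the label sham and 78 with the label UUO, and clusters of fibroblast-like cells were almost entirely of 1 library, so these subsets may not be the same cells in both.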

How the results depend on the processing

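No paired analysis was possible because each group is 1 library. No member 2-fold apart in fibroblast-like cells changed direction under the 13 alternative settings, but H2-Aa went from a log2 ratio of 0.06 to -1.18 in cells without a leukocyte marker UMI. Bst2 passed 2-fold in those cells, Psmb9 in cells with Xist UMIs and Ifit1 in cells with Y-linked UMIs. The median of the interferon response genes in fibroblast-like cells (0.39, log2, UUO over sham) stayed within its counting interval, but was 0.20 with 20 CPM added, 0.22 without leukocyte marker UMIs and 0.20 in cells with Xist UMIs. That of class I (0.80) was 0.70 with equal weight for each cell, 0.69 with 20 CPM added, 0.44 in cells without a leukocyte marker UMI and 0.67 in cells with Y-linked and no Xist UMIs. That of class II (-1.12) was -0.71 with 20 CPM added, -1.90 without leukocyte marker UMIs and -0.79 in cells with Y-linked UMIs. H2-T23 fell under 2-fold without leukocyte marker UMIs and in cells with Xist UMIs; H2-Ab1 with Leiden clusters and with 20 CPM added; H2-Eb1 with equal weight, with 20 CPM added and in cells with Y-linked UMIs. Irf1, H2-D1, H2-Q7 and Cd74 passed 2-fold under all 13. The endothelial count of 21 with the label UUO fell to 14 in cells with Xist UMIs, of which 7 were endothelial-like. Thinning to 1000 UMIs took the share of fibroblast-like cells with a UMI, with the labels sham and UUO, from 42.7% and 14.2% to 9.89% and 3.40% for Cd74, from 20.8% and 14.8% to 4.41% and 3.12% for Isg15, and from 96.9% and 96.5% to 74.4% and 86.7% for B2m. Endothelial values with the label UUO rest on 324505 UMIs, other myeloid-like values on 268027 and T- or NK-like values on 98291, which limits their precision.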
